A study of Mus musculus with 6 samples.

Results

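The interleukin 1 family genes described here are 9 ligands, receptors and inhibitors: Il33, Il1a, Il1b, Il18, Il1rn, Il1r1, Il1rl1, Il1r2 and Il1rap. They were chosen by gene name among the non-control probes of an Agilent 1-colour mouse array, with every probe kept, which gave 18 probes of 41174 and 9 of 27617 gene names. The choice was made with the array values in view, because Il1rl1 was among the largest rises from the arrays of replicate 1 to those of replicate 2. The difference between replicate numbers is therefore given below as a description, with no test, while the differences between the 3 groups were tested.

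Interleukin 1 family ligands bind a primary receptor on the cell surface, which then pairs with an accessory protein and recruits the adaptor Myd88 to switch on NF-kB and MAP kinase signalling. Decoy receptors, soluble receptor forms and the receptor antagonist hold this signal back. Fibroblasts respond to interleukin 1 with chemokines, interleukin 6 and matrix-degrading enzymes, and stromal cells are a known source of interleukin 33.

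The study measured total RNA from mouse embryonic fibroblasts (MEFs) at day 8 of reprogramming, meaning the conversion of somatic cells towards pluripotent cells by introduced factors. All cells were infected with the combination that the labels call SKO, together with Flag, with Gadd45a (Ga in the sample titles) or with G39A, which the series describes as a negative mutant of Gadd45a. After infection the MEFs were kept for 6 days in high-glucose DMEM with serum and LIF, and no uninfected MEFs are among these arrays. There were 6 arrays, 2 per group, numbered replicate 1 and replicate 2 in each group. Nothing in the labels ties the replicates to separate cultures. The p-values below therefore speak only to the spread among these 6 arrays, and the labels do not say whether the replicate numbers mark separate experiments.

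The number of arrays limits the precision, and the replicate number was the main difference among them. Between 57.0% and 62.9% of spots on each array were well above background by the scanner's own call, and 0 were saturated. The first principal component, with 86.1% of the variance, parted replicate 1 from replicate 2. Replicate 1 of Flag and Gadd45a lay on slide 1, replicate 1 of G39A on slide 2 and all of replicate 2 on slide 3, so the slide and the replicate number cannot be told apart. Pou5f1, the gene of the reprogramming factor Oct4, was at 3851, 5153 and 6363 on the Flag, Gadd45a and G39A arrays of replicate 1 and not well above background on those of replicate 2 (3.6 to 4.4). Gadd45a itself was at 1017, 560 and 1395 in replicate 1 and 2309, 1870 and 2147 in replicate 2, so it was not brighter on the arrays labelled Gadd45a. Klf4 and Sox2 were read as further checks. Of the 4 check genes, 2 were well above background on all 6 arrays. In replicate 2, 1 was at least 2-fold lower in all groups and 0 were higher, beside 11.1% and 9.52% over all genes. The labels do not say whether the introduced sequences hold the targets of the Pou5f1 and Gadd45a probes, so the values do not check the labels.

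Values are the scanner's processed signal, and are given throughout in the order Flag, Gadd45a, G39A. Log2 differences were taken after each array was scaled to its 75th percentile. The brightness of one probe is not set against that of another. Of the 9 genes, 6 had a probe that cleared the scanner's background call on both arrays of some group, and these were tested: Il33, Il18, Il1rn, Il1r1, Il1rl1 and Il1rap. Il1a, Il1b and Il1r2 did not pass this filter, Il1r2 because it was well above background on replicate 2 arrays only.

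Several probes read different transcripts of one gene, and the parts of those that bear on the results are printed here, 5′ to 3′ along the transcript in lower case. For probes that lie within 1 exon the first 30 bases are shown, and for those that cross an exon junction all 60 bases. Il1rl1 encodes ST2, the receptor of interleukin 33, and makes a short transcript for a soluble decoy form and a long transcript for the membrane-bound form. Its 3 probes, on the plus strand of mm9, lay at chr1:40504769-40504828 (the end of the soluble transcript), chr1:40521952-40522011 (the end of the membrane transcript) and chr1:40498342-40499204 (across an exon junction in upstream exons that both transcripts share). Il1rap, the accessory protein, likewise had a probe for the membrane form at chr16:26717189-26717248 and one for a soluble form at chr16:26701498-26701557. Il1r2, the decoy receptor of interleukin 1, had a probe at chr1:40180014-40180073 and one across an exon junction at chr1:40168971-40171918.
Il1rl1 soluble transcript: ctctgtaacaggatcttttgtctagatttc
Il1rl1 membrane transcript: tgaccttatttgcttaccagttacaggtaa
Il1rl1 shared exons: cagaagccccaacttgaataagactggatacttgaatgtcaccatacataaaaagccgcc
Il1rap membrane form: ccagataagttccacataaactttgaatgt
Il1rap soluble form: gatgttgtcaacgcctttgtttctaaatgt
Il1r2 first probe: ttgatccagtcacaagggaggatctgcata
Il1r2 second probe: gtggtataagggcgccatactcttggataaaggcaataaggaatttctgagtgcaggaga

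Among the ligands, interleukin 33 and interleukin 18 RNA was measured on all 6 arrays, whereas neither interleukin 1 gene was. Il33 encodes a nuclear cytokine released from damaged cells, the ligand of ST2. Its probe at chr19:30034990-30035049 read 590, 622 and 647 in replicate 1 and 622, 420 and 642 in replicate 2. The Gadd45a array of replicate 2 was the lowest of the 6, and the other 5 lay close together. The mean difference of replicate 2 from replicate 1 was 0.01 ± 0.34 on the log2 scale (SD, n = 3 groups).

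Il18 encodes a cytokine that, like interleukin 1 beta, is cut to its active form by caspase 1. Its probe, which spans chr9:50387470-50389598 across an exon junction, was printed 10 times on each array. The mean over these spots was 202.4 ± 23.8, 180.5 ± 12.9 and 221.7 ± 15.2 in replicate 1 and 368.2 ± 18.8, 289.0 ± 21.2 and 383.7 ± 18.6 in replicate 2, where the SD is over spots of 1 array and so is technical. Every array of replicate 2 was brighter than every array of replicate 1, but the share of all genes that part in this way was not counted. The log2 difference was 0.91 for Flag, 0.87 for Gadd45a and 1.07 for G39A, a mean of 0.95 ± 0.11 (SD, n = 3), or 1.94-fold.

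Il1a and Il1b, which encode the classical ligands interleukin 1 alpha and beta, were not well above background on any array. The 2 Il1a probes read 5.1 to 9.5 and 3.7 to 7.9. Il1b was also printed 10 times, and the mean of its unmarked spots lay between 4.35 and 7.87. Up to 2 of its spots per array were marked as outliers and left out, the brightest of them at 54.0 on the Gadd45a array of replicate 2. None of the unmarked spots was well above background, so these arrays give only an upper bound for both genes.

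Il1rn encodes the receptor antagonist, which occupies the interleukin 1 receptor without switching it on. It was bright on all 6 arrays and moved little. Its probe at chr2:24206125-24206184 read 6693, 6431 and 9190 in replicate 1 and 4485, 3813 and 4491 in replicate 2. The log2 difference was -0.53, -0.56 and -0.75, a mean of -0.61 ± 0.12 (SD, n = 3), so it was 1.53-fold lower in replicate 2. The second probe, across an exon junction within chr2:24203035-24204055, read 263, 284 and 294 against 219, 170 and 210, a mean difference of -0.32 ± 0.20.

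**Figure D1:**
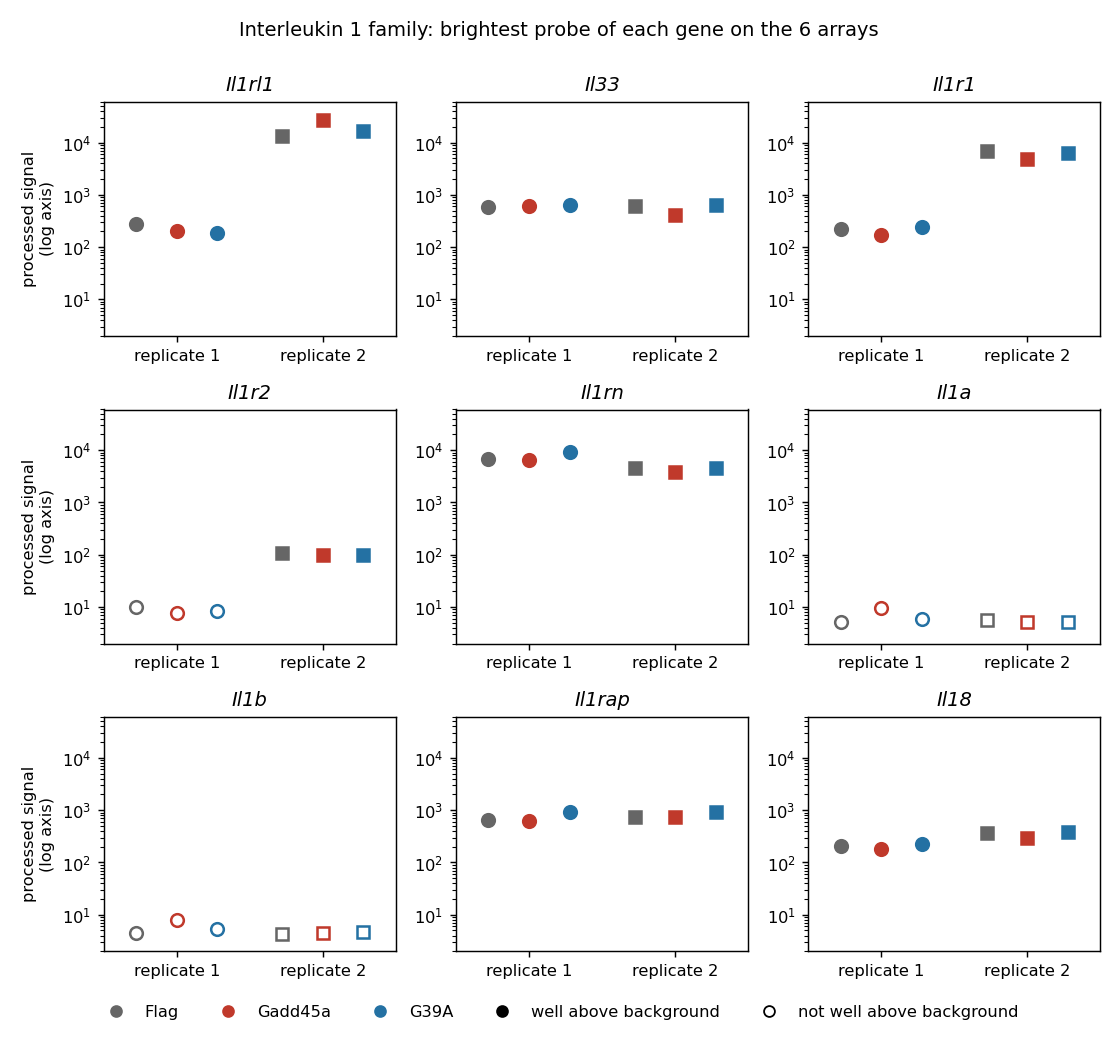
Processed signal (log axis) of the brightest probe of each of the 9 genes on the 6 arrays, by replicate number and group, with open points for values not well above background. Il1rl1, Il1r1 and Il1r2 were brighter on the replicate 2 arrays, Il33, Il1rn, Il1rap and Il18 differed by less than 2-fold on average, and Il1a and Il1b were not well above background on any array.

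Among the members, the receptor genes Il1rl1, Il1r1 and Il1r2 differed most between the replicate numbers. Il1r1 encodes the signalling receptor of interleukin 1 alpha and beta. Its probe at chr1:40372667-40372726 read 227, 169 and 237 in replicate 1 and 6765, 4902 and 6307 in replicate 2. The log2 difference was 4.95, 5.05 and 5.01, so the 3 groups lay within a narrow range around a mean of 5.0 ± 0.05 (SD, n = 3), or 32.1-fold. Il1r2 encodes a receptor that binds interleukin 1 without passing on a signal. Its first probe read 10.1, 7.5 and 8.6 in replicate 1, not well above background, and 106.8, 97.4 and 97.9 in replicate 2, well above it. Set against the lowest signal that was well above background on each replicate 1 array, it was at least 4.65-fold higher in replicate 2. The second Il1r2 probe, across an exon junction nearer the start of the transcript, was not well above background on any array (5.3 to 9.9), so the rise of Il1r2 rests on 1 probe.

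Il1rl1 had the widest difference of the 9 genes. The soluble-transcript probe read 271, 200 and 185 in replicate 1 and 13315, 26507 and 16922 in replicate 2. The log2 difference was 5.67 for Flag, 7.25 for Gadd45a and 6.8 for G39A, a mean of 6.57 ± 0.81 (SD, n = 3), or 95.1-fold. The membrane-transcript probe read 76.5, 71.2 and 72.8 in replicate 1 and 2269, 5835 and 2861 in replicate 2, a mean difference of 5.69 ± 0.81, or 51.6-fold. The transcripts of the decoy and of the signalling receptor were thus both higher in replicate 2 in each group. The probe in the shared exons read 52.3, 59.1 and 12.5 in replicate 1 and 1103, 2285 and 1337 in replicate 2. Its value on the G39A array of replicate 1 was not well above background, so that pair gives a bound of at least 75.6-fold, while the ratio was 21.8-fold for Flag and 44.2-fold for Gadd45a.

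**Figure D2:**
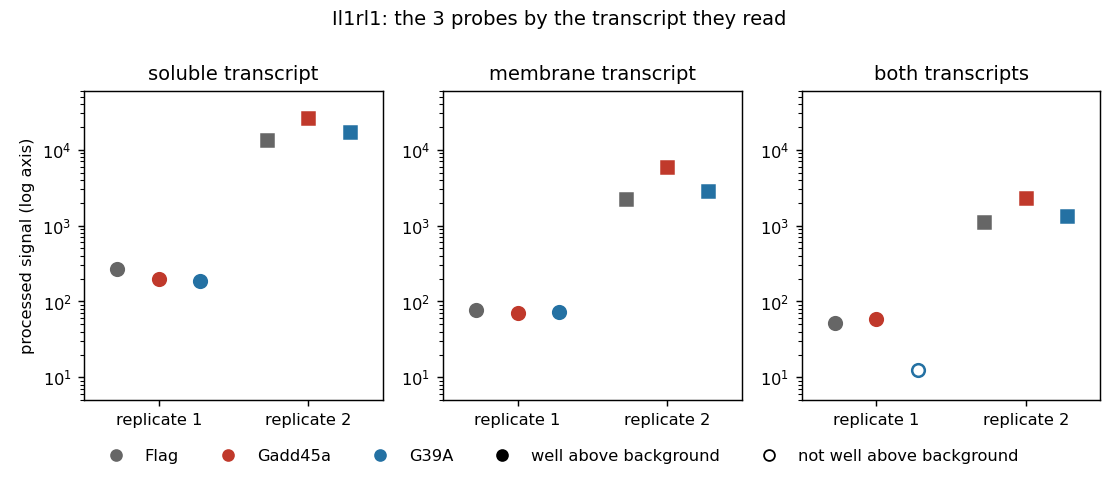
Processed signal (log axis) of the 3 Il1rl1 probes on the 6 arrays, by replicate number and group, with an open point for the 1 value not well above background. With each probe the replicate 2 arrays lay above the replicate 1 arrays, and Gadd45a was the highest of the 3 arrays of replicate 2.

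Il1rap encodes the accessory protein that Il1r1 and ST2 both need to signal. The membrane-form probe read 648, 614 and 928 in replicate 1 and 748, 754 and 914 in replicate 2, a mean log2 difference of 0.33 ± 0.13 (SD, n = 3). Here the replicate numbers overlapped, and the 2 G39A arrays were the brightest of the 6. The soluble-form probe read 204, 180 and 190 in replicate 1 and 270, 266 and 279 in replicate 2, a mean difference of 0.68 ± 0.20. The other 3 Il1rap probes were not well above background on any array. Of these, the probe at chr16:26716132-26716190 is assigned to the same transcript as the membrane-form probe and read 6.2 to 21.7. The membrane-form values therefore rest on 1 probe.

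Among all 16044 genes that were well above background on the 3 arrays of a replicate number, 9.52% were at least 2-fold higher in replicate 2 in all 3 groups and 11.1% were at least 2-fold lower, and the median difference was 0.11. Of the 9 interleukin 1 family genes, 7 were among these, and Il1a and Il1b were not. Of the 7, 3 were at least 2-fold higher in all 3 groups (Il1rl1, Il1r1 and Il1r2) and 0 were lower. Without a filter on dim probes the background shares were 6.11% and 7.64% of 27594 genes. Nothing is read from this count, since the genes were chosen with these differences known. Il1r2 was the gene nearest to the 2-fold limit from above, with a lowest group difference of 3.46 as measured, and Il18 the nearest from below, with 0.87. Counting genes by their mean rise, 3 of the 16044 reached that of Il1rl1, itself included, and 32 reached that of Il1r1.

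The 3 receptor genes that were higher in replicate 2 lie close together on mouse chromosome 1, and the sequence before their starts is shown because they moved together. Each sequence is the 250 bases before a transcription start in RefSeq's annotation of GRCm38.p6, on the plus strand, with a match to the NF-kB consensus in capitals. The motifs searched, on both strands of the 300-base windows that also hold the 50 bases after the start, were the AP-1 letters TGANTCA, the NF-kB consensus and the TATA box letters TATAAA. Il1rl1 has an upstream and a downstream start, and Il1r1 also has a pair of them.
Il1rl1 upstream start, chr1:40429320-40429569: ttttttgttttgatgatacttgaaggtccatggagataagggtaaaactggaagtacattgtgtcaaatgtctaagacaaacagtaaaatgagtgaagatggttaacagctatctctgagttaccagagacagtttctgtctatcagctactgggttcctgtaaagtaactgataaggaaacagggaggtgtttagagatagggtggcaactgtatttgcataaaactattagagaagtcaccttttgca
Il1rl1 downstream start, chr1:40439379-40439628: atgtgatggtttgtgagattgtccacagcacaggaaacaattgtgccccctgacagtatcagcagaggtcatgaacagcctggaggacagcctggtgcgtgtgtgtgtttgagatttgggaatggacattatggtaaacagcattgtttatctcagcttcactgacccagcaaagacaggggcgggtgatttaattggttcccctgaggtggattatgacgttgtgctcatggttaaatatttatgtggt
Il1r1 upstream start, chr1:40224830-40225079: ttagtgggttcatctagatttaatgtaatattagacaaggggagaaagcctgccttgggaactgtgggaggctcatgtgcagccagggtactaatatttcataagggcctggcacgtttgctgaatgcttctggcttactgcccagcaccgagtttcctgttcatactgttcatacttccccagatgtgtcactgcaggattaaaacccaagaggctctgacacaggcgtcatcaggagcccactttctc
Il1r1 downstream start, chr1:40266336-40266585: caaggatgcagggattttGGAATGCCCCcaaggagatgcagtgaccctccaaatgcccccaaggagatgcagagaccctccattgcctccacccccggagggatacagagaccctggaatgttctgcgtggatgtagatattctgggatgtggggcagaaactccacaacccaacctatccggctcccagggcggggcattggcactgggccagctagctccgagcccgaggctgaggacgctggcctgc
Il1r2 start, chr1:40085843-40086092: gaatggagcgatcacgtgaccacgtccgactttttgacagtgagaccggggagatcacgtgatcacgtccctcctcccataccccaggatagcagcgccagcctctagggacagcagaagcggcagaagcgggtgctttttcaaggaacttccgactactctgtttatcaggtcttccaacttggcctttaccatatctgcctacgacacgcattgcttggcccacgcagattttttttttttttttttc

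Of these 5 windows, the downstream one of Il1r1 held the only match, an NF-kB consensus match that begins at -232 from the start. Neither window of Il1rl1 and not that of Il1r2 held any of the 3 motifs. All 9 genes had a window, 14 in all. An AP-1 match stood in the windows of 2 genes, Il1rn at -141 and Il1a at -12, and TATAAA in those of 5 genes, Il33, Il1rn, Il1a, Il1b and Il18. Counted by window, 2 of the 14 held the AP-1 letters, 1 the NF-kB consensus and 6 TATAAA. Among all 32851 windows, 7.81% held the AP-1 letters, 4.51% the NF-kB consensus and 13.6% TATAAA. A match describes letters and does not show that a factor binds there.

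The cluster on chromosome 1 holds 6 receptor genes of the family in the order Il1r2, Il1r1, Il1rl2, Il1rl1, Il18r1 and Il18rap, and the other members of the cluster were read in the same way. Il1rl2, the receptor of interleukin 36, was at 187, 164 and 195 in replicate 1 and 1490, 1514 and 1698 in replicate 2, a mean log2 difference of 3.28 ± 0.21 (SD, n = 3), or 9.74-fold. Il18rap, the accessory chain of the interleukin 18 receptor, was not well above background in replicate 1 and was at 61.3, 130 and 81.8 in replicate 2, at least 4.01-fold higher. Il18r1, the ligand-binding chain of that receptor, was not well above background on any array. Of the genes beside the cluster, Map4k4 differed by 0.66 ± 0.17. On the other side, Slc9a4 was well above background on 1 array only, and Slc9a2 differed by -3.90 on average but was not well above background on 1 array of replicate 2. The receptor genes with a signal were therefore all higher in replicate 2, and Il18r1 gave no reading.

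**Figure D3:**
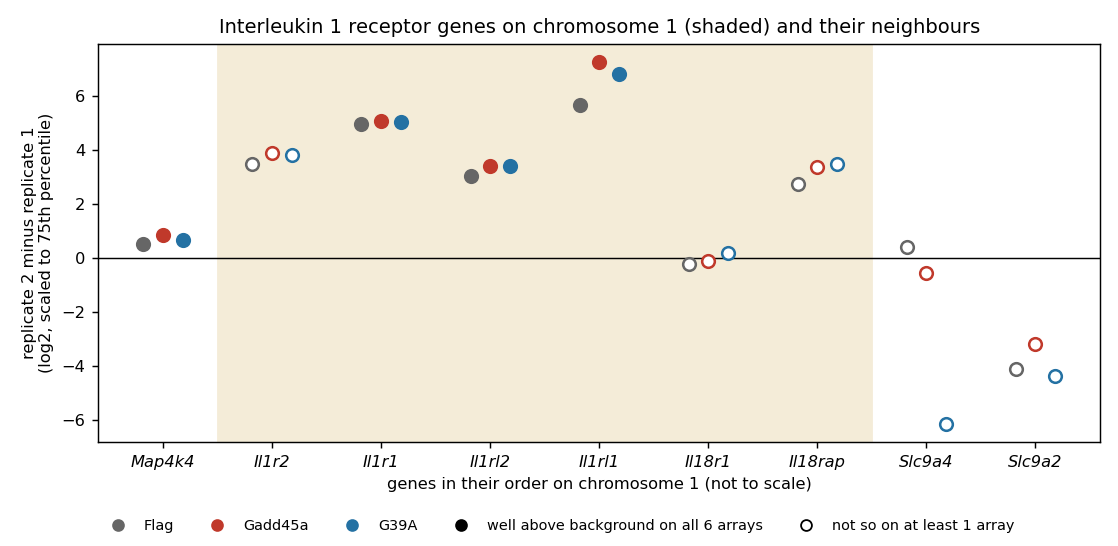
Log2 difference of replicate 2 from replicate 1 for the 6 receptor genes in their order on chromosome 1 (shaded) and 3 neighbours, 1 point per group, with open points where at least 1 of the 6 arrays was not well above background. Il1r2, Il1r1, Il1rl2, Il1rl1 and Il18rap lie above 0, Il18r1 lies near 0 and was not well above background on any array, and Map4k4 differed by 0.66 on average.

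Cell type markers differed between the replicate numbers as well. Over all genes, 9.52% were at least 2-fold higher in replicate 2 in all 3 groups and 11.1% at least 2-fold lower. Markers with a reading are, as for these shares, those well above background on the 3 arrays of a replicate number. The RNA is from whole cultures, so more cells of a type and more RNA per cell cannot be told apart. All 12 fibroblast markers on the array were read, 9 of them at least 2-fold higher in replicate 2, and their summed signal, in units of each array's 75th percentile, was 734 to 834 in replicate 1 and 1230 to 1282 in replicate 2. The keratinocyte and epithelial list of 12 genes summed to 10.1 to 11 in replicate 1 and 2.02 to 3.58 in replicate 2. Of its 10 genes with a reading, 5 were at least 2-fold lower there and 0 higher. Cdh1 and Epcam were not well above background in replicate 2.

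Blood cells that carry ST2 or make interleukin 1 were looked for in the same way. Macrophage markers, 12 on the array, summed to 2.78 to 2.95 in replicate 1 and 8.0 to 12.9 in replicate 2, where Lyz2, a lysozyme of myeloid cells, made up most of the sum. Of the 9 macrophage markers with a reading, 5 were at least 2-fold higher in replicate 2 in all groups, beside 9.52% over all genes. The integrin gene Itgam was the 1 that was lower (8.16-fold on average), beside 11.1% over all genes. Cd68, a lysosomal protein of macrophages, was 1.86-fold lower. The macrophage marker Emr1 was not well above background in replicate 1 and was at 62.1, 23.6 and 28.1 in replicate 2, well above it. Csf1r was 1.75-fold higher in replicate 2. The pan-leukocyte gene Ptprc and Mrc1 were not well above background on any array. Lyz2 was at 804, 871 and 837 in replicate 1 and 7592, 4038 and 4949 in replicate 2.

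Mast cell markers, 12 on the array, summed to 3.02 to 3.42 in replicate 1 and 1.15 to 1.51 in replicate 2, most of it Gata2, a transcription factor that other cells also express. Of the 5 with a reading, 0 were at least 2-fold higher in replicate 2 in all groups and 3 lower (Gata2, Mcpt1 and Hdc). The shares over all genes were 9.52% and 11.1%. Kit, Cpa3, Tpsb2, Tpsab1, Fcer1a and Ms4a2 were not well above background on any array, whereas the protease genes Mcpt4 and Cma1 were well above it on all 6. Mcpt4 was at 111, 181 and 125 in replicate 1 and 21.1, 189 and 35.4 in replicate 2, so the Gadd45a array was the highest there. Mcpt1, at 120, 201 and 120, and the histidine decarboxylase gene Hdc, at 45.8, 59.4 and 47.2, were well above background in replicate 1 and not in replicate 2.

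The T and innate lymphoid list of 10 genes summed to 22.3 to 22.9 and 134 to 135, nearly all of it Thy1, which the fibroblast list also holds. Cd3e, Cd3d, Il7r, Cd4, Cd8a and Il2ra were not well above background on any array, and Cd3g was at 200, 359 and 185 in replicate 1 and not well above background in replicate 2. The other genes of the list, Gata3, Rora and Thy1, were well above background on all 6 arrays. The 10 endothelial markers summed to 1.30 to 1.32 and 1.08 to 1.79, without Pecam1 or Cdh5 well above background on any array. Of the 6 endothelial markers with a reading, 2 were at least 2-fold higher in replicate 2 in all groups and 2 lower, beside 9.52% and 11.1% over all genes. The higher ones were Emcn (4.26-fold) and Erg, not well above background on 2 arrays of replicate 1. The lower ones were Tek and Cldn5. The part of any of these cell types in the receptor differences was not tested.

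The genes most like each member over the 6 arrays were ranked by the root mean square difference of log2 signals centred per gene, among 11928 other genes well above background on all arrays. Il1r1 was nearest to H19, an imprinted non-coding RNA (0.11), Pdgfra, the receptor of platelet-derived growth factor on fibroblasts (0.12), and Svep1 (0.13). Il1rl1 had no gene so near: Cyp7b1 (0.52), Ptn (0.52) and Mfap4, a matrix protein (0.61), came first. Il18 was nearest to Ccdc106 (0.03), Rhobtb3 (0.04) and Lamp2, a lysosomal membrane protein (0.04). Il1rn was nearest to Fgd4, Prps2 and Taf7 (0.04 each), Il1rap to Ercc6l2, Unc13c and Rxylt1 (0.05 to 0.07), and Il33 to Stard8, Zfp959 and Camkk2 (0.07 to 0.08). The 6 arrays share the split into 2 replicate numbers, so genes that differ alike between those numbers rank as near.

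The comparison of Gadd45a with Flag, and of each with the G39A mutant, asks which genes differ between arrays with these labels. The Gadd45a probe was not brighter on the arrays labelled Gadd45a, so its values do not show that Gadd45a RNA was raised there. None of the 6 members tested passed in any of the 3 comparisons by limma with Benjamini-Hochberg adjustment at 0.05. Over all 15650 genes tested the share that passed was 0.0% in each comparison, with 97 genes at an unadjusted p under 0.05 for Gadd45a against Flag, 82 for G39A against Flag and 114 for Gadd45a against G39A. With the replicate number as a block 0 genes passed either, at 1345, 452 and 1390 genes unadjusted. With the slide as a random block 19, 3 and 7 genes passed, or 0.121%, 0.0192% and 0.0447%, none of them a member. Across all settings the lowest adjusted p of a member in limma was 0.462. Gadd45a and G39A were each compared with the same Flag arrays, so those comparisons are not independent.

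Il1rl1 was higher with Gadd45a than with Flag by all 3 probes in replicate 2 and by 1 of the 3 in replicate 1. In replicate 2 the soluble-transcript probe was 1.09 higher on the log2 scale on the Gadd45a array than on the Flag array (2.13-fold), the membrane-transcript probe 1.46 higher (2.75-fold) and the shared-exon probe 1.15 higher (2.22-fold). Within replicate 1 the same differences were -0.49, -0.15 and 0.13, so the direction was kept by the shared-exon probe and not by the other 2. For the soluble-transcript probe, limma gave 0.30 ± 3.84 (log2 difference ± SE, n = 2 arrays per group) with an adjusted p of 1.0, and 0.30 ± 0.40 with an adjusted p of 0.869 with the replicate block. Within replicate 2, 3.84% of all genes tested differed at least 2-fold between Gadd45a and Flag (1.88% of all genes were higher with Gadd45a), and Il1rl1 was the only one of the 6 members tested to do so. The corresponding share was 1.84% in replicate 1, with 0 members. Cell type markers also differed between these arrays of replicate 2: from Flag to Gadd45a by 3.26 for Mcpt4 and 1.06 for Cma1 (mast cells), 1.36 for Emcn and -1.82 for Erg (endothelium), 1.37 for Krt18 (epithelium), and -0.81 for Lyz2 and -0.92 for Tyrobp (macrophages). The lists did not move as a whole: among the other macrophage markers Emr1 was lower (-1.30), and Csf1r (0.24) and Cd68 (0.15) were higher. The markers named here were picked from the lists after their values were seen, and their part in the Il1rl1 difference was not tested.

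The G39A array lay between the others for Il1rl1 in replicate 2. There the 3 probes differed from Flag by 0.38, 0.37 and 0.31, and Gadd45a was 0.71, 1.09 and 0.83 above G39A. In replicate 1 the soluble and membrane probes differed from Flag by -0.75 and -0.27 with G39A, whose array lay on another slide. Gadd45a was above that array by 0.27, 0.12 and 2.39 with the 3 probes, the last against a G39A value not well above background. Before scaling, the membrane probe read 71.2 with Gadd45a and 72.8 with G39A in replicate 1, so its order there depends on the scaling. The 3 probes read the same arrays and are not separate measurements of the groups. The limma estimate for the soluble-transcript probe was 0.49 ± 3.84, and 0.49 ± 0.40 with the replicate block (adjusted p = 0.702).

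Il1r1 was lower on the Gadd45a array than on both others in each replicate number. Gadd45a differed from Flag by -0.47 in replicate 1 and -0.37 in replicate 2, and from G39A by -0.34 and -0.30. The limma estimate against Flag was -0.42 ± 2.91 with an adjusted p of 1.0. With the replicate block it was -0.42 ± 0.09, with an adjusted p of 0.462 by limma. The difference was thus larger than its spread between pairs but did not pass over all genes. G39A differed from Flag by -0.13 and -0.06.

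Il18 was likewise lowest with Gadd45a in both replicate numbers, by -0.21 and -0.25 against Flag and by -0.14 and -0.35 against G39A. The limma estimate against Flag was -0.23 ± 0.58, and -0.23 ± 0.10 with the replicate block (adjusted p = 0.623 by limma). For Il33 the difference of Gadd45a from Flag was 0.03 in replicate 1 and -0.47 in replicate 2, an estimate of -0.22 ± 0.23. For Il1rn it was -0.10 and -0.14 with the brighter probe, an estimate of -0.12 ± 0.39. With the replicate block the estimates were -0.22 ± 0.18 for Il33 (adjusted p = 0.777 by limma) and -0.12 ± 0.10 for Il1rn (adjusted p = 0.786 by limma). The estimates for these genes without the block were smaller than their standard errors. With the block they were larger, and none passed.

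Il1rap showed its clearest difference with the mutant. The membrane-form probe was higher with G39A than with Flag by 0.32 in replicate 1 and 0.33 in replicate 2, an estimate of 0.32 ± 0.26 by limma and 0.32 ± 0.11 with the replicate block (adjusted p = 0.991). The soluble-form probe did not follow, at -0.30 and 0.08. Gadd45a against Flag gave -0.12 and 0.11 with the membrane-form probe. With the same probe Gadd45a differed from G39A by -0.44 and -0.22, an estimate of -0.33 ± 0.11 with the replicate block (adjusted p = 0.537 by limma). The soluble-form probe gave 0.08 and -0.01 for that comparison.

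**Figure D4:**
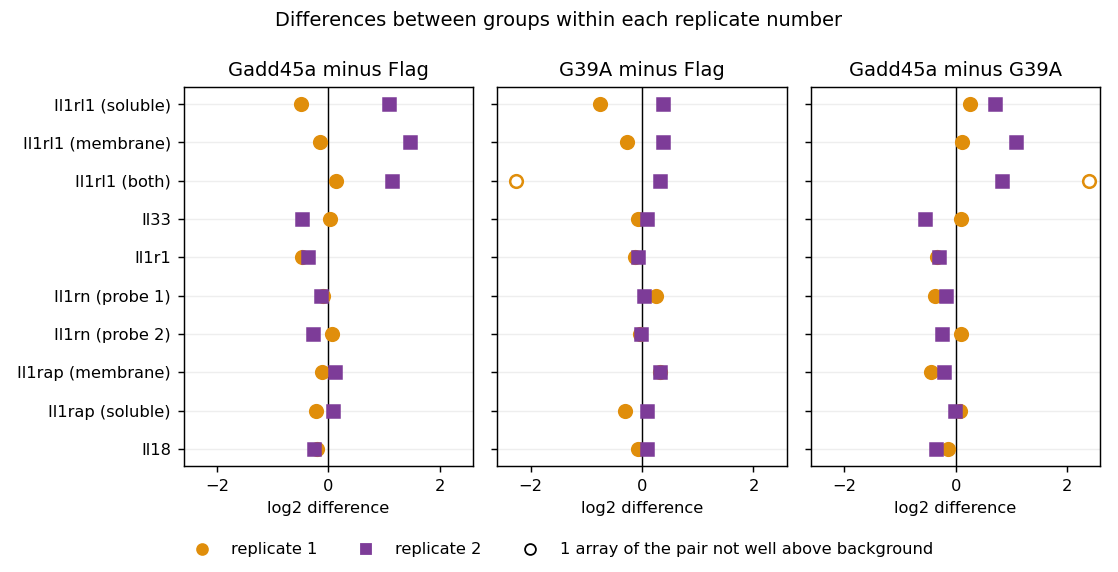
Log2 differences between groups within replicate 1 (circles) and replicate 2 (squares) for the 10 probes of the 6 members tested, with open points where 1 array of the pair was not well above background. The Il1rl1 probes lie between 1.09 and 1.46 for Gadd45a minus Flag in replicate 2 and between -0.49 and 0.13 in replicate 1, and Il1r1 lies at -0.47 and -0.37.

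The other genes of the pathway were read from lists of further ligands, receptors, processing enzymes, signalling proteins, NF-kB factors and genes that fibroblasts switch on after interleukin 1. Of 79 such genes on the array 56 were tested, and 0 passed in any comparison between groups by limma with or without the replicate block, with 0 genes at an unadjusted p under 0.05 without the block and, with it, 6 for Gadd45a against Flag, 0 for G39A against Flag and 7 for Gadd45a against G39A. Between the replicate numbers, 14 of the 58 genes with a reading were at least 2-fold higher in replicate 2 in all groups and 9 at least 2-fold lower, beside 9.52% and 11.1% over all genes.

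Among 7 other receptors and binding proteins, Sigirr, an inhibitory receptor of the family that lies outside the chromosome 1 cluster, went the other way. It was at 2329, 1940 and 2742 in replicate 1 and 46.4, 53.3 and 50.1 in replicate 2, a log2 difference of -5.36 ± 0.32 (SD, n = 3), or 41.1-fold lower. Il18bp, a secreted protein that neutralises interleukin 18, differed by 0.40 ± 0.40. None of the 5 other ligands on the array was tested. Of the 8 genes with a reading on the list for processing of the ligands, 2 were at least 2-fold higher in replicate 2 and 1 lower. The shares over all genes were 9.52% and 11.1%. Casp1 was not well above background in replicate 1 and was at 36.0, 55.0 and 40.7 in replicate 2, and Casp4, another inflammatory caspase, was 10.6-fold higher. Pycard, the adaptor that activates caspase 1, was at 3512, 2321 and 3950 in replicate 1 and 460, 244 and 563 in replicate 2, or 7.08-fold lower. Casp4 and Pycard are named after their values were seen.

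All 17 signalling genes on the array were tested, and most differed little between the replicate numbers, with a median of -0.18. Myd88 differed by 0.86 ± 0.18, the kinases Irak1 by -0.11 ± 0.16, Irak2 by 0.43 ± 0.33 and Irak4 by -0.25 ± 0.16, the ubiquitin ligase Traf6 by -0.62 ± 0.23 and the adaptor Tollip by -0.41 ± 0.07. Irak3, which lacks kinase activity and dampens the pathway, differed most, at 6492, 8073 and 7042 in replicate 1 and 697, 443 and 659 in replicate 2, or 10.8-fold lower. The other signalling gene at least 2-fold lower in all groups was Peli1, a ubiquitin ligase (3.16-fold), and its relative Peli2 was 2.49-fold lower on average. Both are named after their values were seen. The median of the 12 NF-kB genes read was -0.28. Of these, Nfkbia and Tnfaip3, inhibitors that NF-kB itself induces, were 2.20-fold and 2.44-fold lower in replicate 2, while Nfkbiz, another induced NF-kB regulator, was 4.80-fold higher.

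The 17 fibroblast response genes with a reading had a median of 1.54, beside 0.11 over all genes. Of these, 9 were at least 2-fold higher in replicate 2 in all groups and 2 lower, beside 9.52% and 11.1% over all genes. Icam1, an adhesion molecule, was 5.74-fold higher, Mmp3, a matrix protease, 5.07-fold and Cxcl1, a neutrophil chemokine, 3.38-fold. Il6 (0.60 ± 0.45) and the chemokine genes Ccl2 (0.34 ± 0.40) and Ccl7 (0.14 ± 0.37) differed by less than 2-fold, and Csf3 was not well above background on any array. Ptgs2, the inducible cyclooxygenase, was 4.19-fold lower on average.

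On the arrays of replicate 2 some of these response genes were brighter with Gadd45a than with Flag, and others were not. Ptgs2 was at 716, 2039 and 769 there, a difference of 1.61 from Flag, against 0.07 in replicate 1. Il6 was at 411, 986 and 470, a difference of 1.36, against 0.46, and Ccl2 differed by 1.11, against 0.30. For Cxcl1 the difference in replicate 2 was 0.06, and for Icam1 it was -0.23. Saa3, named after its values were seen, differed by -0.73, against 0.68 in replicate 1. Any link of these genes with Il1rl1 was not tested. The median of the 17 response genes tested was 0.13 for Gadd45a against Flag by limma, beside -0.02 over all genes, and none passed.

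**Figure D5:**
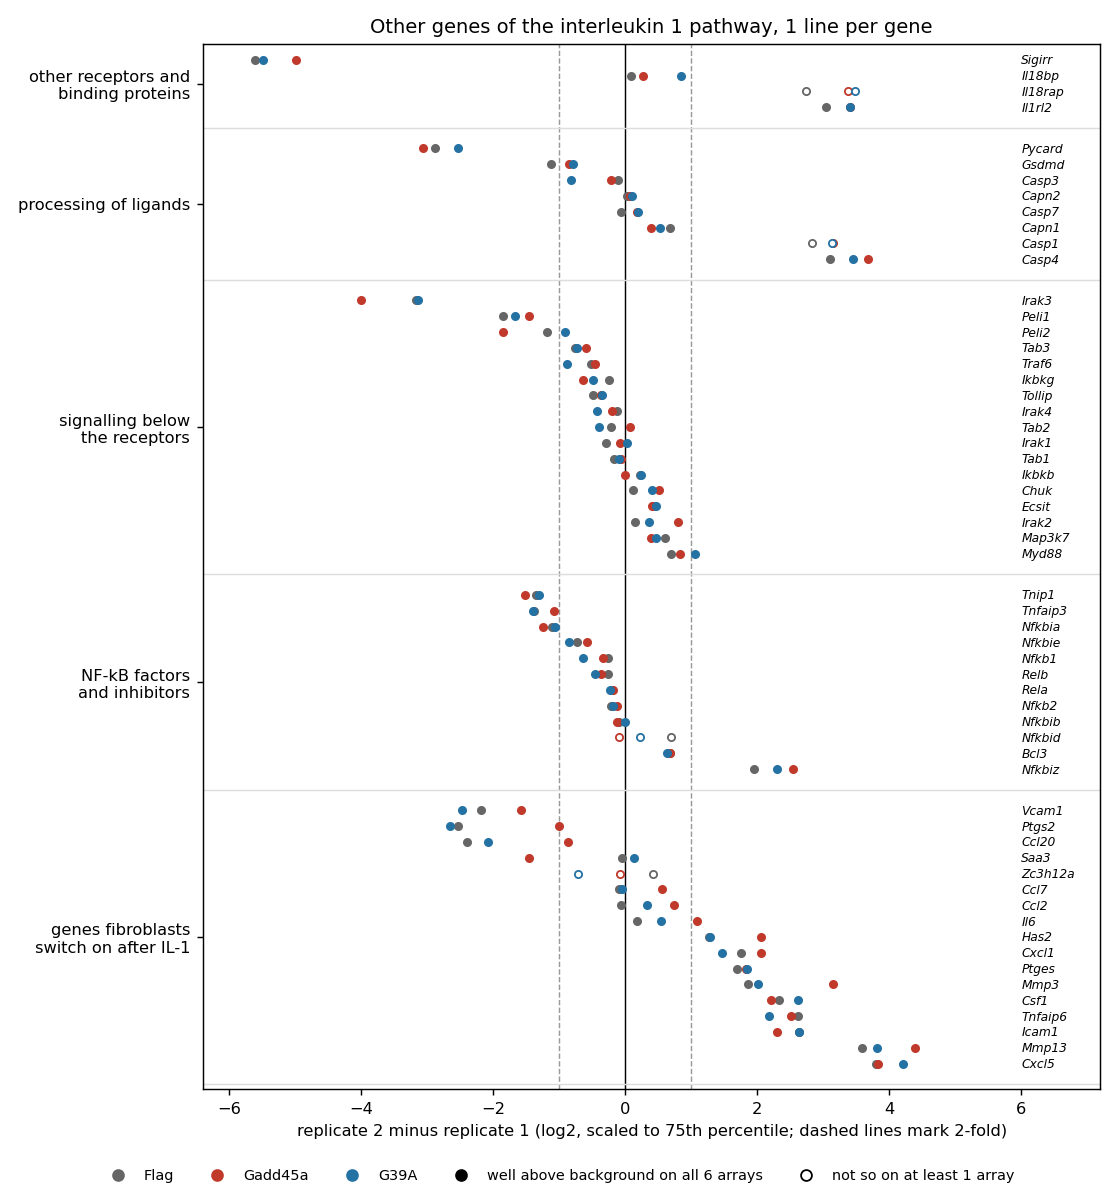
Log2 difference of replicate 2 from replicate 1 for the 58 other pathway genes with a reading, 1 line per gene and 1 point per group, sorted within each list, with dashed lines at 2-fold. Sigirr and Irak3 lie farthest to the left, and most signalling genes lie between the dashed lines.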

How the data were processed

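Total RNA of 6 samples was hybridised with Cy3 label to 1-colour Agilent arrays, and the submitters' processing notes name Agilent Feature Extraction 10.7. The scanner's processed intensity, already background-subtracted per the file headers, was used as deposited by the authors, with outlier spots left out and spots of a probe averaged. A log2 value table deposited by the authors, quantile normalized by its values, with column medians of 6.17 and a direction that follows the scanner intensities (r of at least 0.9989 for each array), was used as an alternative; how it was made is not given in the sources used here. Here, log2 intensity minus each array's 75th percentile was analysed. A spot's call of well above background is the scanner's, and a probe with several spots needed at least 50% of them. Probes well above background on both arrays of a group were kept (24149), the brightest per gene was tested (15650 genes), and 27668 of 41174 probes were named through RefSeq accessions, the rest by the name in the files.

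Groups came from the sample labels. The 3 comparisons were fitted in limma 3.58 (R 4.3) over all 6 arrays, and p-values were adjusted over all genes by the Benjamini-Hochberg method. The fit was also run on simulated data with the same spread for every gene, unlike the real data, and nothing is read from that run. The replicate numbers pair the arrays: deviations from the group means of same-numbered arrays correlated at 0.911 to 0.915, so a fit with the number as a block is given beside results. Alternatives were that block, the slide as a random block, normexp background (offset 50), quantile normalization, the value table, no filter on dim probes, every probe tested, and each array left out. A fold marked "at least" takes, per dim array, the higher of the lowest signal well above background and the probe's own.

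The members and lists were chosen with earlier results of these data known. Named were every member, a set list of pathway genes, and the 3 genes most like each member. Lif is not analysed here. Probe coordinates are those of the files (mm9), and promoter sequences are RefSeq's for GRCm38.p6, matched by symbol for all 9 members.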

Additional observations from a re-analysis of the deposited data

How the results depend on the processing

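With 2 arrays per group and 3 residual degrees of freedom, the median standard error over genes was 0.32 on the log2 scale, which limits what could be called. The replicate block lowered it to 0.12 and left 0 genes past the threshold in each comparison, as in the fit without it. It changed no call for a member. The slide as a random block (correlation 0.903) gave 19, 3 and 7 genes, and the cause was not tested. Among the 126 member results under alternatives other than leaving out an array, 3 changed direction, all close to 0: Il1rap for Gadd45a against Flag with normexp (0.0050), and Il18 for G39A against Flag with normexp (-0.0061) and with quantile normalization (-0.00050). None passed the threshold. Leaving out 1 array unpairs the replicate numbers, the lone array being assumed to vary like the other groups, and the direction then changed in 28 of 108 results. Without each array in turn, the log2 differences for Gadd45a against Flag, G39A against Flag and Gadd45a against G39A ran as follows: Il1rl1 -3.32 to 3.92, -3.59 to 3.22 and -3.14 to 4.11; Il1r1 -2.95 to 2.11, -2.61 to 2.41 and -2.85 to 2.21; Il1rn -0.40 to 0.16, -0.23 to 0.52 and -0.64 to 0.11; Il18 -0.69 to 0.22, -0.52 to 0.55 and -0.78 to 0.29; Il33 -0.41 to -0.03, -0.13 to 0.14 and -0.41 to -0.04; Il1rap -0.25 to 0.24, 0.19 to 0.45 and -0.57 to -0.09.

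For the difference between replicate numbers, 6 of 54 values moved by more than 1 SD. The sign was kept for Il1rl1, Il1r1, Il1r2, Il1rn, Il1rap and Il18, and turned under some settings for Il33, from 0.01 to -0.13 without the G39A pair, and for Il1a and Il1b, which were not well above background. Normexp gave 4.6 for Il1r1, 1.34 for Il1r2 and 0.77 for Il18, quantile normalization 4.06 for Il1r2, and the deposited values gave 4.05 for Il1r2 and -0.74 for Il1rn. Without the G39A pair, an alternative chosen after seeing the data, 24 pathway genes were at least 2-fold apart, against 23.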
